A study of Sus scrofa with 20 samples.

Results

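The adenylyl cyclases, which make cAMP from ATP, and the cyclic nucleotide phosphodiesterases, which break cAMP and cGMP down, were compared between backfat and liver of Nanchukmacdon boars. Genes were taken by symbol from the table of counts per gene: ADCY followed by a number, or PDE followed by a number and a single letter from A to D. This gave 32 genes of the 31907 in the table, of which 15029 carried a symbol. There were 10 ADCY genes and 22 PDE genes, and 4 further symbols beginning with ADCY or PDE and a number fell outside the rule. RNA-seq was done on bulk backfat and bulk liver of 5 boars described as normal, with 5 libraries per tissue. No treatment or genetic change was applied to either tissue, and the sample labels give an age of 22 months for all, while the study's methods state a different average age. The breed was developed from the Jeju native black pig, and each piece of tissue is a mixture of cell types. A lower level in bulk tissue cannot tell fewer cells of a type apart from less RNA per cell. WGBS was also done on both tissues, and it gave no value per gene here.

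Hormones that act through stimulatory G proteins raise cAMP by switching on membrane-bound adenylyl cyclases, and cAMP then activates protein kinase A (PKA), the exchange factors RAPGEF3 and RAPGEF4 and the Popeye proteins. In adipocytes this chain drives the breakdown of stored triglyceride, and in hepatocytes it carries the glucagon signal to glycogenolysis and gluconeogenesis. Insulin opposes it in both cell types, in part through phosphodiesterase PDE3B. The cyclases differ in what tunes them: ADCY1, ADCY3 and ADCY8 are stimulated by calcium and calmodulin, ADCY2, ADCY4 and ADCY7 by G protein beta-gamma subunits, ADCY5 and ADCY6 are inhibited by calcium, ADCY9 responds weakly to forskolin, and ADCY10 is the soluble, bicarbonate-sensitive enzyme. Among the phosphodiesterases, the PDE4, PDE7 and PDE8 families hydrolyse cAMP, PDE5A, PDE9A and the photoreceptor family PDE6 hydrolyse cGMP, and PDE1, PDE2A, PDE3, PDE10A and PDE11A accept both. PDE6D met the rule by its symbol but encodes a prenyl-binding protein and not a catalytic subunit.

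The 10 libraries held between 43820042 and 61772737 counts. Levels of genes are given as CPM, counts relative to the library size after TMM normalization. Marker sums are CPM of all counts without TMM. Adipocyte markers summed to 10752 to 16338 CPM in backfat and to 7.05 to 8.69 CPM in liver, and the hepatocyte markers ran the other way in every library. The liver library of boar 67 stood apart, with hepatocyte markers at 13196 CPM against 41344 to 72334 CPM in the other liver libraries, red cell markers at 1325 CPM against 64.0 to 292 CPM, smooth muscle markers at 250 CPM against 112 to 153 CPM, and the 3 skeletal muscle markers found at 106 CPM against 0.307 to 1.10 CPM. Hepatocyte markers in the backfat library of boar 69 summed to 105 CPM against 3.17 to 4.61 CPM in the other backfat libraries. Endothelial markers summed to 784 to 1568 CPM in backfat and 77.8 to 177 CPM in liver. Fibroblast markers summed to 18800 to 39363 and 221 to 475 CPM, and smooth muscle markers to 420 to 692 and 112 to 250 CPM. Without TMM, each of these sums was higher in every backfat library. The TMM factors were larger in backfat than in liver, so with them the gaps would be narrower and the smooth muscle ranges would overlap. The skeletal muscle markers reached 563 CPM in the backfat library of boar 65, against 9.02 to 180 CPM in the others of that tissue. The part of these cell types in the values below was not tested.

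Of the 32 genes, 30 had enough counts to be tested. PDE6B had 4 counts over the 5 backfat libraries and 0 over the 5 liver libraries, and PDE11A had 14 and 4 counts, so neither was tested. With the study's thresholds for a differentially expressed gene (DEG), an adjusted p no higher than 0.05 together with a log2 fold change of 2 or more, 6 of the 30 were called higher in backfat and 1 was called higher in liver, against 11.1% and 11.2% of all 16275 genes tested. The 6 were ADCY1, ADCY2, PDE1A, PDE4A, PDE6A and PDE8B, and the 1 was ADCY8. Without backfat 69 and liver 67 together ADCY1 was lost (adjusted p = 0.0801, edgeR), ADCY4 was added and the other calls stayed. At the adjusted p alone, 16 were higher in backfat and 2 higher in liver, beside 28.0% and 27.0% of all genes. Every backfat library lay above every liver library for 10 of the 30, beside 22.9% of all genes. The reverse held for ADCY9, and the ranges overlapped for the other 19. The share of all genes with the reverse was not counted, so the 2 directions cannot be weighed here. The median log2 fold change (positive where backfat was higher) was 0.67 over the 30 genes and 0.00 over all genes. It was 0.42 for the 10 cyclases and 0.72 for the 20 PDE genes tested.

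**Figure D1:**
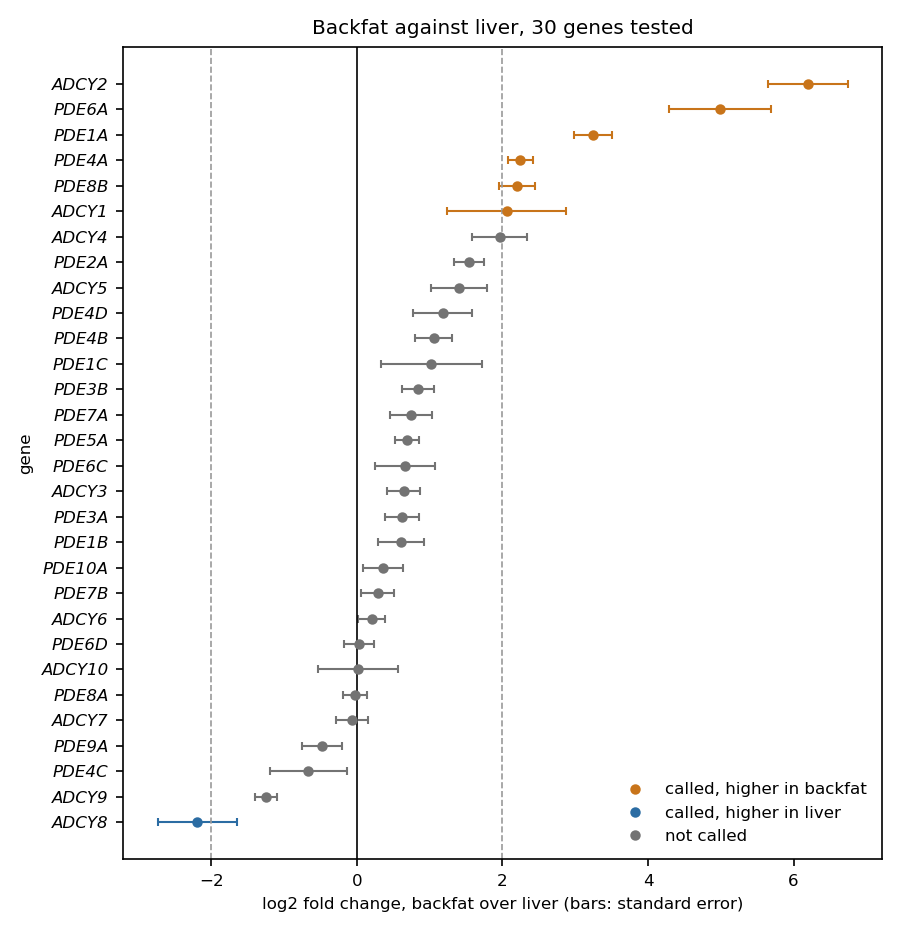
Log2 fold change of backfat over liver (x axis) with its standard error (bars) for the 30 genes tested (y axis), from 5 libraries per tissue. Dashed lines mark the log2 fold change of 2 in either direction; 6 genes lie past it on the backfat side and ADCY8 lies past it on the liver side.

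Levels of different genes were compared as TMM-normalized CPM per kb of annotated exon. The orders depend on this length. It is 8208 bases for ADCY4 and 5867 for ADCY6, while their longest RefSeq transcripts have 4400 and 6004 bases. With the RefSeq lengths ADCY4 would come before ADCY6 in backfat. For PDE9A the lengths are 3304 and 5641 bases, and with RefSeq lengths it would fall below PDE6D in liver. The values below use annotated exon. ADCY6 had the highest mean in both tissues, 17.1 ± 3.21 CPM per kb in backfat and 14.8 ± 2.63 CPM per kb in liver (SD, n = 5). In backfat it was followed by PDE2A at 12.99 ± 2.55, PDE8A at 11.6 ± 1.24, ADCY4 at 9.59 ± 2.88, ADCY5 at 8.83 ± 3.40 and PDE3B at 8.45 ± 0.688 CPM per kb. In liver it was followed by PDE8A at 11.8 ± 2.15, PDE9A at 9.47 ± 4.13, PDE6D at 8.29 ± 2.13, ADCY9 at 5.14 ± 0.679 and PDE3B at 4.72 ± 1.70 CPM per kb. The ranges of neighbours in these orders overlapped, except that every backfat value of PDE7A lay above every one of PDE8B, likewise ADCY1 above PDE11A in backfat, and ADCY10 above ADCY2 in liver. The lowest genes were PDE6B and PDE11A in both tissues, at no more than 0.0134 CPM per kb.

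**Figure D2:**
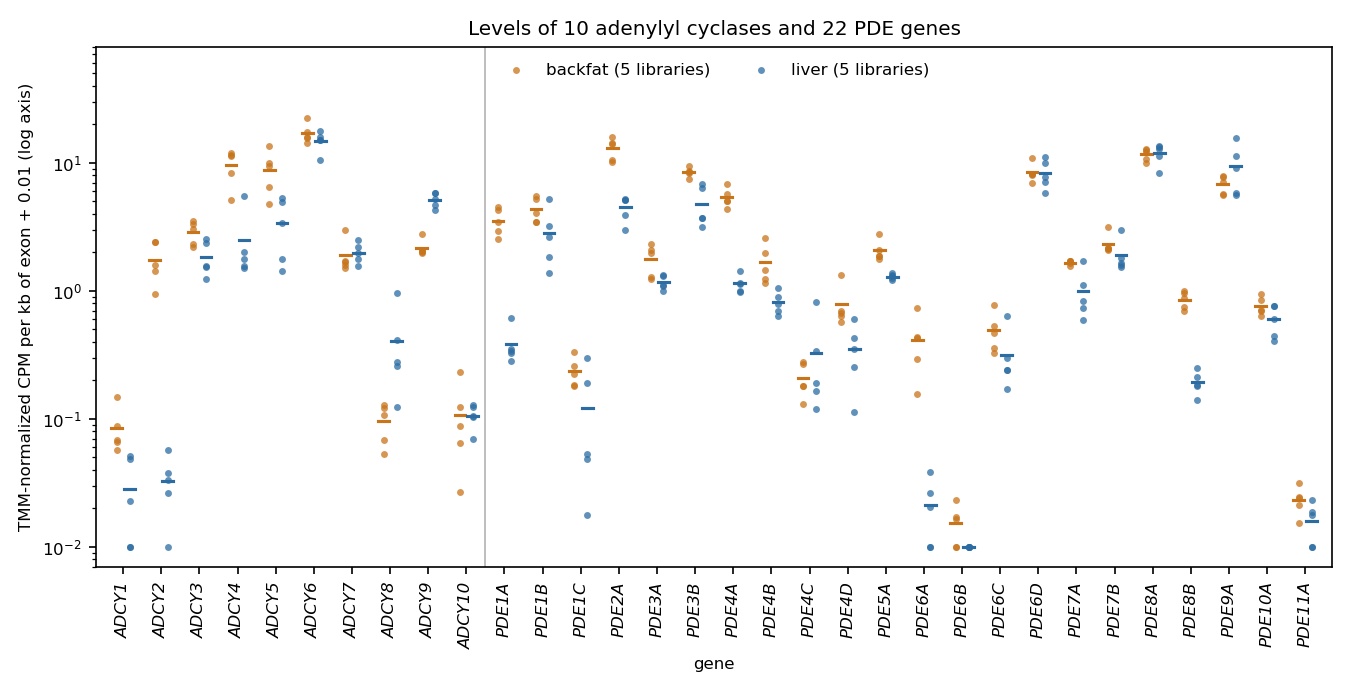
TMM-normalized CPM per kb of exon (log axis, with 0.01 added to each value) for the 32 genes in each of 5 backfat and 5 liver libraries (points), with the mean of each tissue (bars). ADCY6 has the highest mean in both tissues, and ADCY2 shows the widest gap between them.

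Among the cyclases, ADCY2 showed the largest change. Its levels were 7.26, 4.33, 6.59, 10.99 and 11.06 CPM in the backfat libraries of boars 65, 67, 69, 71 and 72, and 0.0748, 0.216, 0.127, 0 and 0.109 CPM in the liver libraries in the same order. The liver libraries together held 21 counts of it, against 2575 in backfat. The log2 fold change was 6.19 ± 0.55 (SE), with an adjusted p of 1.14e-06 by edgeR's quasi-likelihood test, and the 2 tissues did not overlap. RefSeq places ADCY2 at chr16:74305729-74729999 in Sscrofa11.1.

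ADCY1 was called on far fewer counts, 198 in backfat and 27 in liver. Its levels were 0.395, 0.488, 0.471, 1.17 and 0.652 CPM in backfat and 0, 0.108, 0, 0.347 and 0.325 CPM in liver. The log2 fold change was 2.06 ± 0.82 with an adjusted p of 0.0493 (edgeR), just inside the threshold. The call was lost when any of 8 of the 10 libraries was left out, with adjusted p values over all 10 omissions between 0.0337 and 0.121; the exceptions were the liver libraries of boars 71 and 72.

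ADCY8, the third of the calmodulin-stimulated cyclases beside ADCY1 and ADCY3, was the gene called higher in liver. It measured 0.485, 0.565, 0.219, 0.595 and 0.292 CPM in backfat and 2.02, 1.24, 0.573, 4.74 and 1.36 CPM in liver. The liver library of boar 71 was the highest, and that of boar 69 fell within the range of backfat. The log2 fold change was -2.19 ± 0.54 (adjusted p = 0.00433, edgeR). It was -1.61 (adjusted p = 0.0108) without the liver library of boar 71 and -1.97 (adjusted p = 0.00286) with boar as a block, both short of the fold threshold. ADCY3 was higher in backfat at the adjusted p alone, at 23.4 ± 4.82 against 14.97 ± 4.57 CPM (log2 fold change 0.64 ± 0.23, adjusted p = 0.0300, edgeR). The adjusted p of ADCY3 was over 0.05 in 6 of the 10 omissions of a library (the backfat libraries of boars 65, 71 and 72 and the liver libraries of boars 65, 67 and 69), at up to 0.0760.

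ADCY9 was higher in every liver library than in any backfat library, and by less than the fold threshold. It measured 26.0, 18.9, 18.6, 18.4 and 19.3 CPM in backfat and 54.3, 40.1, 43.3, 48.4 and 54.1 CPM in liver. The log2 fold change was -1.25 ± 0.16 (adjusted p = 2.46e-05, edgeR), and it lay between -1.35 and -1.18 when each library was left out in turn. ADCY9 and ADCY8 were the 2 members higher in liver at the adjusted p.

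ADCY4 measured 68.4, 96.8, 41.6, 93.9 and 92.6 CPM in backfat and 16.5, 45.1, 12.3, 14.3 and 12.8 CPM in liver. The liver library of boar 67 was the single one to reach into the range of backfat. The log2 fold change was 1.96 ± 0.38 (adjusted p = 0.000870, edgeR), just under the fold threshold. It was 2.46 without that library, 2.65 without that library and the backfat library of boar 69, and 2.10 with boar as a block, and past both thresholds in each of these. In the liver library of boar 67 the red cell, smooth muscle and skeletal muscle markers were the highest and the hepatocyte markers the lowest among liver libraries, and their part in the ADCY4 value was not tested. ADCY5 was higher in backfat at the adjusted p, at 52.7 ± 20.3 against 19.97 ± 10.5 CPM (log2 fold change 1.40 ± 0.39, adjusted p = 0.00836, edgeR), with overlapping ranges.

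The remaining cyclases did not pass the test. ADCY6, the most abundant, measured 100.1 ± 18.8 CPM in backfat and 86.9 ± 15.4 CPM in liver, with a log2 fold change of 0.20 ± 0.18 (adjusted p = 0.365, edgeR). ADCY7 measured 13.6 ± 4.52 and 14.3 ± 2.63 CPM, and ADCY10 measured 0.489 ± 0.393 and 0.481 ± 0.117 CPM. Summed per kb, the 10 cyclases reached 44.4 ± 7.03 CPM per kb in backfat and 30.1 ± 3.05 CPM per kb in liver, given as a description.

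The choice among isoforms was measured as a share: the counts per kb of one gene over the sum of the same for its family in that library. A share needs no scaling between libraries, but it depends on the exon lengths used. The shares of a family add up to the whole, so a larger share of a gene lowers those of the others. The shares counted below therefore depend on each other, and so do the numbers larger in each tissue. Of 20 shares tested by a two-sided exact permutation test of 5 against 5 libraries with Benjamini-Hochberg adjustment, 11 differed at an adjusted p of at most 0.05, 5 of them larger in backfat and 6 larger in liver. For 8 the tissues did not overlap at all, and each of these had an adjusted p of 0.0198 by the exact permutation test, from p = 0.00794, the smallest that the 252 arrangements allow. The other 3, ADCY4, ADCY7 and PDE7B, lost the call in 9, 8 and 8 of the 10 omissions of a library. With a library fewer, the p values come in coarser steps, so these losses do not separate an unstable difference from a coarser test. The differences kept their direction in the omissions. They were 11.9 to 15.7 percentage points for ADCY4, -2.74 to -2.06 for ADCY7 and -10.4 to -6.94 for PDE7B. With backfat 69 and liver 67 both left out, 4 libraries a tissue remained and the smallest adjusted p was 0.0635 by the exact permutation test, so that 0 of the 20 passed. The smallest p possible is larger with so few arrangements, so this setting could hardly pass any share and is no check of the calls. None of the 11 differences turned.

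In the cyclase family, ADCY6 made up 38.7 ± 5.42% of the total in backfat and 49.2 ± 7.80% in liver, a difference that missed the threshold (adjusted p = 0.0611, exact permutation test). These shares use annotated exon, and with RefSeq lengths ADCY4 would come before ADCY6 in backfat. What stood beside ADCY6 differed. ADCY4 made up 16.1, 24.4, 14.7, 24.1 and 28.2% in backfat and 6.32, 16.4, 5.70, 6.36 and 4.97% in liver (adjusted p = 0.0433, exact permutation test). ADCY9 made up 5.37, 4.19, 5.77, 4.15 and 5.17% in backfat and 18.3, 12.8, 17.6, 18.9 and 18.4% in liver, with no overlap. ADCY2 held 4.03 ± 1.595% in backfat and 0.0739 ± 0.0530% in liver, and ADCY8 held 0.188 ± 0.0534% and 1.35 ± 1.21%, both without overlap. The share of ADCY7 was smaller in backfat, 4.24 ± 1.03% against 6.59 ± 1.14% (adjusted p = 0.0433, exact permutation test), while its level did not pass the test (adjusted p = 0.812, edgeR). ADCY5 held 19.6 ± 5.76% and 11.04 ± 5.74% (adjusted p = 0.0680), and the shares of ADCY1, ADCY3 and ADCY10 did not pass the exact permutation test either.

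**Figure D3:**
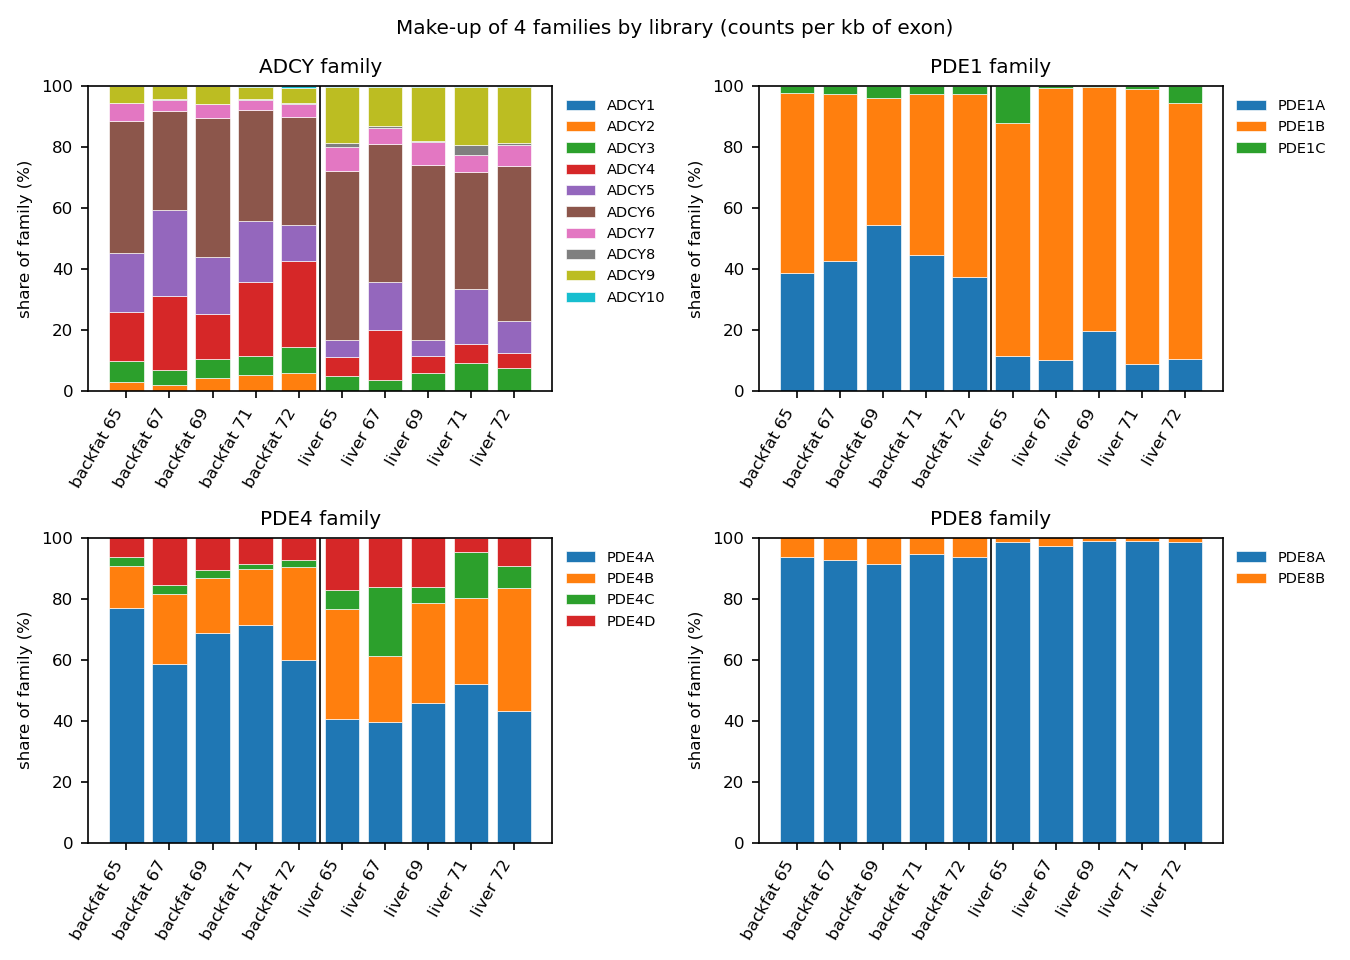
Share of each gene in its family (y axis, percent of the counts per kb of exon) in each of the 10 libraries (x axis, labelled by tissue and boar) for the cyclases and the PDE1, PDE4 and PDE8 families. PDE1A takes 37.4 to 54.6% of the PDE1 family in backfat and 8.96 to 19.8% in liver, and ADCY9 takes 4.15 to 5.77% of the cyclases in backfat and 12.8 to 18.9% in liver.

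Among the 20 shares, the largest difference was in the calmodulin-dependent PDE1 family, at 31.4 percentage points for PDE1A. PDE1A measured 27.1, 33.5, 35.8, 22.9 and 19.95 CPM in backfat and 2.17, 4.75, 2.68, 2.50 and 2.60 CPM in liver, so the lowest backfat library was well above the highest liver library. Its log2 fold change was 3.24 ± 0.26 (adjusted p = 5.71e-07, edgeR). PDE1B measured 18.0 ± 4.02 CPM in backfat and 11.9 ± 6.26 CPM in liver and did not pass the test (log2 fold change 0.61 ± 0.32, adjusted p = 0.127, edgeR). PDE1B did pass at the adjusted p, without reaching the fold threshold, with boar as a block (0.73, adjusted p = 0.0400, edgeR), without the liver library of boar 67 (0.91, adjusted p = 0.0124, edgeR) and by limma-voom (0.77, adjusted p = 0.0473). PDE1A held 38.9, 42.6, 54.6, 44.6 and 37.4% of the family in backfat and 11.5, 10.3, 19.8, 8.96 and 10.5% in liver, while PDE1B held 53.6 ± 7.32% and 83.8 ± 5.79%. PDE1C was a minor isoform with 607 counts in backfat and 174 in liver, and neither its level (log2 fold change 1.03 ± 0.69, adjusted p = 0.226, edgeR) nor its share passed a test as reported. The level of PDE1C did pass at the adjusted p without the liver library of boar 65 (1.78, adjusted p = 0.0419, edgeR) and by limma-voom (1.89, adjusted p = 0.0310).

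The cAMP-specific PDE8 family was led by PDE8A in both tissues, at 44.4 ± 4.74 CPM in backfat and 45.1 ± 8.19 CPM in liver (log2 fold change -0.03 ± 0.16, adjusted p = 0.904, edgeR). PDE8B was the minor isoform, at 4.62, 6.19, 6.02, 4.33 and 5.42 CPM in backfat and 1.27, 1.51, 1.08, 0.821 and 1.09 CPM in liver (log2 fold change 2.20 ± 0.25, adjusted p = 1.17e-05, edgeR). It held 6.81 ± 1.25% of the family in backfat and 1.61 ± 0.691% in liver, without overlap.

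The promoters of 2 pairs, PDE1A with PDE1B and PDE8B with PDE8A, are shown. In each pair the isoform that was called and the partner that was not differ in CpG content, the dinucleotide in which DNA methylation is mostly found. Each is the 250 bases before the gene start in RefSeq on Sscrofa11.1, 5′ to 3′ on the strand of the gene, with every CpG in capitals. PDE1A is from the minus strand of chr15:87965069-87965318 and PDE1B from the plus strand of chr5:19725096-19725345. PDE8B is from the plus strand of chr2:86006940-86007189 and PDE8A from the minus strand of chr7:52558483-52558732.
PDE1A: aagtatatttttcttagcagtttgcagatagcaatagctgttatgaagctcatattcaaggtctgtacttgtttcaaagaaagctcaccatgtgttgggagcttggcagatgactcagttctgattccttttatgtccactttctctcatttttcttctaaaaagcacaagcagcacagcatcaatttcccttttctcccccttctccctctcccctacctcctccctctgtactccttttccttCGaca
PDE1B: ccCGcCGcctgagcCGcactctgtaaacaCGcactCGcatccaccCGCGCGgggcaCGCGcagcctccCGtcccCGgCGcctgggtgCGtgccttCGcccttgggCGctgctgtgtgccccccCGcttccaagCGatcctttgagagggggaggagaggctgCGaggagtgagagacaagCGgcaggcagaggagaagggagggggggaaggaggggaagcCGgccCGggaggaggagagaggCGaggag
PDE8B: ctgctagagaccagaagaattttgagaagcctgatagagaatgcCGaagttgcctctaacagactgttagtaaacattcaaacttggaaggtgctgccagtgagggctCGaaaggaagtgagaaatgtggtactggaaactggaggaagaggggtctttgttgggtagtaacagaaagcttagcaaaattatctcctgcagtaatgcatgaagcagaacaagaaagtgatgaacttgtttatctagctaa
PDE8A: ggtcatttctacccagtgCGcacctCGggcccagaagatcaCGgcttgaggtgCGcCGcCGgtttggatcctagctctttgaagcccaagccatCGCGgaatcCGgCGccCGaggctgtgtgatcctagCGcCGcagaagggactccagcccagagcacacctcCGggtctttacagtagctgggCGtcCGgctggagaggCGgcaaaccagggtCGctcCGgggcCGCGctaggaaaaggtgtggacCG
PDE1A had 1 CpG and PDE8B had 2, while PDE1B had 23 and PDE8A had 22. PDE1C, which is not shown and was not called either, had 7, so low CpG content did not set the called isoform apart in the PDE1 family. Of all 19556 protein-coding genes with such a window, 9.8% had as few as PDE1A and 15.6% as few as PDE8B, and 23.4% had as many as PDE1B and 25.4% as many as PDE8A. The median was 12 over all windows and over the 32 genes. These pairs were chosen after their values were seen, and the contrast is a description. Of the other genes called higher in backfat, ADCY1 had 56 CpG, ADCY2 48, PDE4A 29 and PDE6A 11. In the PDE4 family the contrast ran the other way: PDE4B had 20, PDE4C 4 and PDE4D 1, and none of them was called. Genes with other RefSeq transcripts have further starts that these windows do not hold, and methylation at the windows was not analysed here.

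The rolipram-sensitive PDE4 family was led by PDE4A. PDE4A measured 47.2, 34.7, 29.98, 39.05 and 34.9 CPM in backfat and 6.88, 9.88, 6.69, 7.93 and 7.78 CPM in liver, with no overlap (log2 fold change 2.25 ± 0.18, adjusted p = 4.17e-07, edgeR). Its share was 67.1 ± 7.79% in backfat and 44.3 ± 4.94% in liver, also without overlap. PDE4B was higher in backfat by less, at 15.3 ± 5.52 against 7.37 ± 1.54 CPM (log2 fold change 1.06 ± 0.25, adjusted p = 0.00344, edgeR), and so was PDE4D, at 6.81 ± 2.73 against 2.995 ± 1.603 CPM (log2 fold change 1.18 ± 0.41, adjusted p = 0.0264, edgeR). For PDE4D this was lost without the backfat library of boar 67 or the liver library of boar 72, with adjusted p values up to 0.0809 (edgeR). The share of PDE4B was 20.7 ± 6.39% in backfat and 31.7 ± 7.20% in liver (adjusted p = 0.0611, exact permutation test). PDE4C had 251 and 217 counts in all and no difference in level that passed the test (adjusted p = 0.303, edgeR), but held 2.46 ± 0.656% of the family in backfat and 11.2 ± 7.38% in liver, without overlap. The liver library of boar 67 had the largest PDE4C share, 22.4%, and the next was 15.03%. Without it the difference between the tissues went from -8.72 to -5.91 percentage points (adjusted p = 0.0353, exact permutation test).

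Of the third cAMP-specific family, PDE7A was higher in backfat at the adjusted p (5.71 ± 0.244 against 3.40 ± 1.53 CPM, log2 fold change 0.75 ± 0.29, adjusted p = 0.0423, edgeR) and PDE7B was not (12.9 ± 2.61 against 10.6 ± 3.44 CPM, log2 fold change 0.29 ± 0.22, adjusted p = 0.302, edgeR). Both log2 fold changes were larger without the liver library of boar 67, PDE7A at 1.00 (adjusted p = 0.00289, edgeR) and PDE7B at 0.47 (adjusted p = 0.0420, edgeR). In each of the other 9 omissions PDE7A missed the adjusted p, at up to 0.0957. PDE7B led in both tissues, with 58.1 ± 3.95% of the family in backfat and 66.6 ± 5.18% in liver (adjusted p = 0.0433, exact permutation test) and overlapping ranges.

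PDE2A, which cGMP stimulates, and the PDE3 pair, which cGMP inhibits, accept both nucleotides. PDE2A measured 84.6, 76.0, 74.6, 56.1 and 53.4 CPM in backfat and 27.7, 26.9, 27.2, 15.8 and 20.7 CPM in liver, without overlap (log2 fold change 1.54 ± 0.20, adjusted p = 3.43e-05, edgeR). PDE3B measured 48.6, 48.1, 49.1, 54.3 and 43.1 CPM in backfat and 39.2, 18.0, 36.3, 21.0 and 21.4 CPM in liver, also without overlap (log2 fold change 0.84 ± 0.22, adjusted p = 0.00646, edgeR). The backfat libraries lay close together for PDE3B and the liver libraries fell into a higher pair and a lower group of 3. PDE3A was higher in backfat as well, at 8.10 ± 2.23 against 5.27 ± 0.669 CPM (log2 fold change 0.62 ± 0.23, adjusted p = 0.0350, edgeR), but missed the adjusted p, at up to 0.0934, in 6 of the 10 omissions (the backfat libraries of boars 65, 67 and 69 and the liver libraries of boars 69, 71 and 72). The make-up of the pair did not pass the test: PDE3B held 82.8 ± 4.02% in backfat and 79.2 ± 5.84% in liver (adjusted p = 0.392, exact permutation test). PDE10A, at 2.59 ± 0.435 and 2.01 ± 0.584 CPM, did not pass the test (adjusted p = 0.294, edgeR).

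Of the cGMP-specific enzymes, PDE5A, the target of sildenafil, measured 14.2, 15.9, 21.3, 14.2 and 13.6 CPM in backfat and 9.92, 9.23, 9.60, 10.4 and 10.1 CPM in liver, without overlap (log2 fold change 0.69 ± 0.16, adjusted p = 0.00352, edgeR). PDE9A had the third highest level per kb of annotated exon in liver. It measured 31.3 ± 13.6 CPM there against 22.4 ± 3.66 CPM in backfat, a difference within the spread of the libraries (log2 fold change -0.48 ± 0.27, adjusted p = 0.151, edgeR). PDE6A, the alpha subunit of the rod enzyme, was called on 368 counts in backfat and 6 in liver. It measured 1.88, 1.08, 1.11, 0.379 and 0.738 CPM in backfat and at most 0.0748 CPM in any liver library (log2 fold change 4.99 ± 0.70, adjusted p = 6.63e-05, edgeR). The cone subunit PDE6C, at 1.77 ± 0.659 and 1.12 ± 0.666 CPM, and PDE6D, at 12.3 ± 2.14 and 12.1 ± 3.11 CPM, did not pass the test (adjusted p = 0.191 and 0.930, edgeR). PDE6C passed at the adjusted p without the liver library of boar 71 (log2 fold change 1.06, adjusted p = 0.0288, edgeR). PDE6A held 44.5 ± 19.8% of the summed PDE6A, PDE6B and PDE6C in backfat and 4.52 ± 4.57% in liver. This share was not tested, because the 3 genes together had as few as 30 counts in a library.

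Summed per kb by substrate, the phosphodiesterases that accept both nucleotides made up 48.2% of the catalytic PDE total in backfat (43.4 to 53.0% over libraries) and 33.4% in liver (27.3 to 38.5%). The cGMP-specific enzymes made up 14.7% (13.6 to 15.7%) and 25.5% (17.6 to 33.9%), and the cAMP-specific enzymes 37.1% (32.8 to 43.0%) and 41.2% (33.8 to 44.7%). The libraries did not overlap for the first 2 classes and overlapped for the third. PDE2A, the highest PDE in backfat, belongs to the first class, and PDE9A, the second highest in liver, to the second. These sums depend on the exon lengths used and are given as a description, with no test.

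The genes around the 2 enzyme families were taken from 6 lists of 50 symbols, of which 45 had an identifier in the table and 44 were tested. Of these 44, 9 were called higher in backfat and 0 higher in liver by edgeR, beside the 11.1% and 11.2% of all genes that were called. At an unadjusted p under 0.05 (edgeR) there were 24 and 5, and the share of all genes at that threshold was not counted. DESeq2 and limma-voom also called 0 higher in liver. At the adjusted p alone the counts were 23 and 5, beside 28.0% and 27.0% of all genes, and the median log2 fold change was 0.65. Among the G protein alpha subunits 1 of 5 was called: GNAI1, an inhibitory subunit that acts on the cyclases, at 79.1 ± 41.4 against 6.68 ± 1.40 CPM (log2 fold change 3.57 ± 0.32, adjusted p = 1.22e-06, edgeR). Of the 9 PKA subunits and inhibitors 3 were called. They were the inhibitor peptides PKIB (10.4 ± 3.57 against 0.791 ± 0.563 CPM, log2 fold change 3.72 ± 0.44, adjusted p = 1.63e-05, edgeR) and PKIA (log2 fold change 2.03), and the regulatory subunit PRKAR2B (log2 fold change 3.34).

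Of the 6 other cAMP effectors and exporters tested, 2 were called, the exchange factor RAPGEF3 (log2 fold change 2.56) and the Popeye protein POPDC3 (1.12 ± 0.435 against 0.169 ± 0.144 CPM, log2 fold change 2.74 ± 0.56, adjusted p = 0.00113, edgeR). Of the 9 anchoring proteins that hold PKA in place, 1 was called, AKAP12 (49.4 ± 24.0 against 5.13 ± 1.33 CPM, log2 fold change 3.26 ± 0.32, adjusted p = 3.16e-06, edgeR), and this list also had 4 genes higher in liver at the adjusted p. On the cGMP side 2 of 8 were called, the natriuretic peptide receptor NPR1 (300.2 ± 52.1 against 14.9 ± 6.02 CPM, log2 fold change 4.33 ± 0.29, adjusted p = 1.08e-07, edgeR) and the soluble guanylyl cyclase subunit GUCY1B1 (log2 fold change 2.18), and 7 of the 8 were higher in backfat at the adjusted p. Of the 7 genes of the CREB list, 3 were higher in backfat at the adjusted p and none passed the fold threshold. GNAS, which encodes the stimulatory subunit, had no identifier here and was not analysed here.

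**Figure D4:**
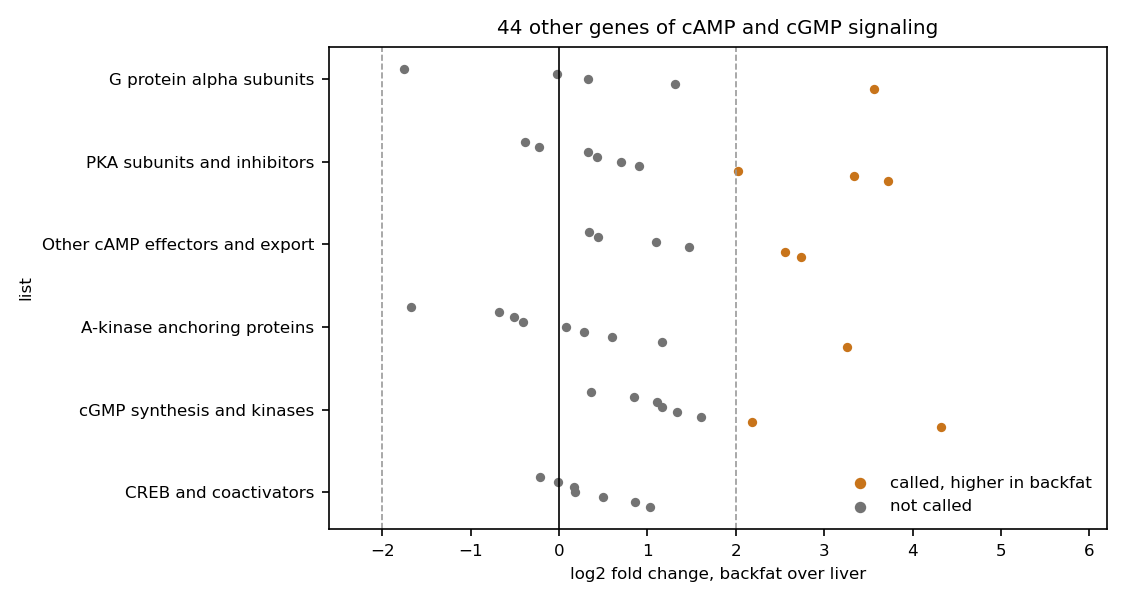
Log2 fold change of backfat over liver (x axis) for 44 genes of cAMP and cGMP signaling in 6 lists (y axis), with dashed lines at 2 in either direction. The 9 genes called lie on the backfat side, and the highest is NPR1 at 4.33.

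The direction of small changes depended on scaling. TMM factors were 1.18 to 1.44 for backfat and 0.649 to 0.916 for liver, and scaling by library size alone moved the median over all genes by 0.71 (log2). Under that scaling 9 members were called higher in backfat and 0 higher in liver, ADCY7, PDE4C, PDE8A and PDE9A turned to higher in backfat, and ADCY8 no longer reached the fold threshold. ADCY6, PDE1B, PDE6C, PDE6D, PDE7B, PDE8A and PDE10A then passed the adjusted p as higher in backfat. The shares were not touched by this choice. The file header sets no strand option, so reads were counted on either strand and overlapping antisense transcripts could not be told apart from these genes.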

How the data were processed

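Backfat and liver of the same 5 boars were compared by RNA-seq. The deposited values are raw counts per gene: the authors mapped reads with HISAT2 to Sscrofa11.1 and counted them with featureCounts 2.0.1 on the annotation of Ensembl release 99, without normalization. The depth was 43820042 to 61772737 counts per library. All columns of the table were used. The WGBS files hold calls by read position and were not used.

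All genes were fitted in R 4.3.3 with edgeR 4.0.16 (filterByExpr by tissue, TMM, glmQLFit and glmQLFTest), with Benjamini-Hochberg adjustment over 16275 genes. Calls needed an adjusted p no higher than 0.05 together with a log2 fold change of 2 or more, the study's thresholds. The study used DESeq2. DESeq2 1.42.0, limma 3.58.1 (voom), glmTreat, other scalings and filters, a block by boar and the omission of libraries were the alternatives. In simulated data for this comparison, 193 of 200 genes changed by a log2 fold of 3 were recovered. The changed genes were drawn from those above a minimum level. The recovery therefore does not cover genes of low level or changes near the fold threshold. Two-sided exact permutation tests were run on the shares (SciPy 1.17.1) in families with at least 50 counts in every library.

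Boar numbers were read from the names of the columns. Deviations from the tissue means correlated between the libraries of each boar at 0.0490 to 0.238, and the tissues come from the same animals. Neither the reported calls nor the permutation tests of shares used this pairing, and the block by boar was fitted as an alternative.

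Every gene that met the rule on symbols is accounted for. Of each pathway list, the called gene with the largest change in each direction and at least 10 counts on average is given in full, and the other called genes were chosen after their values were seen. The genes and lists were chosen with earlier results of these data known. Promoters are windows of 250 bases read from the RefSeq assembly of Sscrofa11.1.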

Additional observations from a re-analysis of the deposited data

Results flagged for a closer look

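In 16 of 100 groups of 5 libraries, 1 library lay far from the other 4 by Dixon's ratio at its 95% critical value, which chance alone flags in about 1 in 20 groups. No explanation was tested.

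Liver of boar 67 was set apart in 6 of these. Its level was high for ADCY4 (45.1 CPM against 12.3 to 16.5 in the other liver libraries), PDE1A (4.75 CPM against 2.17 to 2.68) and PDE7B (16.7 CPM against 8.53 to 10.02). Its share was high for ADCY4 in the cyclases (16.4% against 4.97 to 6.36%) and PDE8B in PDE8 (2.80% against 1.01 to 1.51%) and low for ADCY9 in the cyclases (12.8% against 17.6 to 18.9%). This is the liver library with the lowest hepatocyte markers and the highest red cell markers.

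In liver, the library of boar 71 was high for the level of PDE6C (2.27 CPM against 0.595 to 1.05) and the share of ADCY8 (3.43% against 0.433 to 1.27%). The library of boar 69 in liver was high for the share of PDE1A (19.8% against 8.96 to 11.5%), and that of boar 72 was low for the share of ADCY10 (0.189% against 0.344 to 0.360%).

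In backfat, the library of boar 65 was high for the levels of ADCY7 (21.7 CPM against 10.8 to 12.3) and ADCY9 (26.0 CPM against 18.4 to 19.3). The library of boar 67 was high for the levels of PDE4D (11.6 CPM against 4.95 to 6.02) and PDE7B (17.6 CPM against 11.4 to 12.003) and for the share of PDE7B (65.0% against 55.4 to 57.2%). The library of boar 69 was high for the share of PDE1C (3.87% against 2.44 to 2.68%).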

How the results depend on the processing

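Of 904 values recomputed under an alternative, 795 were labelled the same, 61 weaker, 16 stronger and 32 changed sign. The same means an unchanged direction and side of the threshold, and weaker or stronger means a change of side. For counts of calls, the same means within 1.5 times, and weaker or stronger means past that. For shares from counts summed over the libraries of a tissue, the same means a shift smaller than the larger tissue SD. The causes were not tested. The 6 members called higher in backfat became 3 with at least 10 counts in every library, which left ADCY1, ADCY2 and PDE6A untested, and 3 by glmTreat (ADCY2, PDE1A and PDE6A), and were 5 to 6 with a library left out. The 1 called higher in liver, ADCY8, became 0 with library size alone, limma-voom, glmTreat and the replicate block by boar, and 0 to 1 with a library left out. The block gave 7 members higher in backfat, ADCY4 being added at 2.10. Apart from ADCY4 and ADCY8, no member's call changed with the block, and PDE1B passed the adjusted p alone. The 9 pathway genes called became 5 by glmTreat, and 0 to 1 were called higher in liver with a library left out, GNAL being called without the liver library of boar 71.

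ADCY1 was also lost with DESeq2 size factors (adjusted p = 0.0551) and no filter (0.0562), both by edgeR. Without backfat 69 and liver 67 together, 0 of 20 shares passed the exact permutation test, whose smallest adjusted p was then 0.0635. With 4 libraries a tissue the smallest p possible is larger, so this is no check of the calls. With single libraries left out, 8 to 13 shares passed. Those of ADCY4, ADCY7 and PDE7B lost the call in 9, 8 and 8 of the 10 omissions, where the p values come in coarser steps.

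Signs turned for log2 fold changes near 0. ADCY10 was -0.0096 with DESeq2 size factors, -0.39 by limma-voom, -0.34 with the block and -0.52 to 0.29 with a library left out. PDE6D was -0.017 with DESeq2 size factors, -0.19 without backfat 69 and liver 67, and -0.12 to 0.12 with a library left out. PDE8A was 0.67 with library size alone, 0.031 with no filter and -0.16 to 0.040 with a library left out. PDE9A, PDE4C and ADCY7 were 0.31, 0.15 and 0.65 with library size alone. PDE4C was 0.091 without backfat 69 and liver 67 and -0.89 to 0.0039 with a library left out, and ADCY7 was -0.29 to 0.038 with one left out. The share of ADCY3 differed by -0.523 percentage points with RefSeq lengths, -0.284 without backfat 69 and liver 67 and -0.334 to 1.04 with a library left out, and that of PDE1C by -2.07 to 0.806. Low counts limited PDE6A, PDE6B, PDE11A, ADCY1 and ADCY10.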
